A study of Homo sapiens with 6 samples.

Results

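The genes described here encode surface proteins that are used, or have been tried, as targets of antibody drugs in lung cancer and other carcinomas. They were chosen by name, with earlier results of these data known, as the rows of the deposited table with the symbols CEACAM1, CEACAM5, CEACAM6, CEACAM7, EPCAM, MSLN, FOLR1, PROM1 and CD44. All 9 symbols were found among the 28395 genes of the table. Of these 9 genes, 6 had enough reads to be tested for a change, and MSLN, PROM1 and CEACAM7 did not.

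RNA-seq was performed on HCC827, an established human lung adenocarcinoma cell line with an activating deletion in EGFR, after exposure to the vehicle DMSO or to 1 μM erlotinib, an inhibitor of the EGFR kinase. Both groups were grown in the same serum-containing medium, carried the same EGFR deletion, were treated for 24 h and had 3 libraries each. The comparison asks how the transcriptome of these cells responded to EGFR inhibition. The libraries are called DMSO 1 to 3 and erlotinib 4 to 6, the numbers in the table's column names. They held 20858083, 24641819 and 21172884 reads on genes in DMSO, and 21944007, 20760204 and 21678395 with erlotinib. The labels do not say that the libraries came from separate cultures, so the p-values measure the spread between these samples, which may be technical. Pairs of libraries of a group differed by more than counting noise, with a chi-square per degree of freedom of 4.05 to 22.9, as libraries made from 1 culture also can. All values are from 1 cell line at 1 dose and 1 time. A value is given as signal, the reads on a gene divided by a size factor of its library, which lay between 0.882 and 1.08, so that 1 unit of signal is close to 1 read.

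Carcinoembryonic antigen-related cell adhesion molecules (CEACAMs) are glycoproteins of the immunoglobulin superfamily that bind each other between neighbouring epithelial cells. CEACAM1 spans the membrane and can signal through its cytoplasmic tail, whereas CEACAM5, the carcinoembryonic antigen of the clinic, CEACAM6 and CEACAM7 are held by a glycosylphosphatidylinositol (GPI) anchor, as are the folate receptor FOLR1 and mesothelin. EPCAM is an adhesion molecule of most epithelia, CD44 is the main receptor for hyaluronan, and PROM1 (CD133) is a protein of membrane protrusions used as a marker of stem-like cells.

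The 4 CEACAM genes lie on chromosome 19 of GRCh38. In the RefSeq annotation CEACAM7 is at chr19:41673303-41688270 on the minus strand, CEACAM5 at chr19:41708626-41730519 and CEACAM6 at chr19:41755530-41772211 on the plus strand, and CEACAM1 at chr19:42507306-42528481 on the minus strand. The promoters are shown because these paralogs differed widely in signal. Each sequence runs from 250 bases before the annotated start site to 50 bases from it on, in the direction of transcription. The sequences came from a set of RefSeq promoters on GRCh38.p14 that held 6 of the 9 genes. The capitals mark matches to the motifs searched.
CEACAM5, chr19:41708376-41708675, plus strand: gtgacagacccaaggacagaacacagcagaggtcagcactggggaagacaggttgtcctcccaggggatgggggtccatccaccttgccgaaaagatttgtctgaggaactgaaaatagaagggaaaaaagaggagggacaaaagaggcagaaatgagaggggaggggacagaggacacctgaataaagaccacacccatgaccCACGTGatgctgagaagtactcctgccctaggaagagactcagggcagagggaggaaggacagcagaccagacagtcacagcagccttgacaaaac
CEACAM6, chr19:41755280-41755579, plus strand: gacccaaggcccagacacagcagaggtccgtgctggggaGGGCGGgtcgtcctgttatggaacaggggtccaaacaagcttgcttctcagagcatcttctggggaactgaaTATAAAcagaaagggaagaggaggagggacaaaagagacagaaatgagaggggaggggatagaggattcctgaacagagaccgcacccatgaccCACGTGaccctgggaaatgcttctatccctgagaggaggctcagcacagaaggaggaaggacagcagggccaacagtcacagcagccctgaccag
CEACAM1, chr19:42528432-42528731, minus strand: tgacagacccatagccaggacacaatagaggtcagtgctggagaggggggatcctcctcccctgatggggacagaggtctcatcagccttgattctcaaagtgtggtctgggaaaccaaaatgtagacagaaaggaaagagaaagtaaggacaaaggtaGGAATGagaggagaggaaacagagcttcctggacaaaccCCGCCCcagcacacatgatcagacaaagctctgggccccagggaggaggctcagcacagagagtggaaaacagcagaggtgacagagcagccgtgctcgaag
CEACAM7, chr19:41688221-41688520, minus strand: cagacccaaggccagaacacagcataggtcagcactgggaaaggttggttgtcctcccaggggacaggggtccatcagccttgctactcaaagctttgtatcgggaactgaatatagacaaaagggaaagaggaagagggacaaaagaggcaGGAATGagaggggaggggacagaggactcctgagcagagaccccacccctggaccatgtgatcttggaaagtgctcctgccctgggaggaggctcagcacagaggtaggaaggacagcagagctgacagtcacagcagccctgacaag

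These 4 promoters were alike in sequence. Global alignment gave an identity of 81.4% between CEACAM5 and CEACAM7, 81.3% between CEACAM6 and CEACAM7, and 75.9% between CEACAM5 and CEACAM6, against 73.4%, 68.7% and 67.1% between CEACAM1 and CEACAM7, CEACAM6 and CEACAM5. The E-box CACGTG was present in CEACAM5, at -46 to -41 from the start site, and in CEACAM6, at -45 to -40, and was in neither of the other CEACAM promoters. Of 35116 promoters of the same length, 7.26% held it on either strand. CEACAM6 also had TATAAA at -139, found in 11.5% of promoters, and GGGCGG at -211, found in 44.95%. CEACAM1 had the reverse complement of GGGCGG at -52 and GGAATG, the core of the TEAD motif, at -91, and CEACAM7 had GGAATG at -98. GGAATG was present in 14.0% of promoters. On both strands, none of the 4 sequences held TGANTCA (7.71% of promoters), CCAAT (34.6%), TGTTTAC (3.42%), CCGGAAG (10.3%), TTCNNNGAA (7.66%) or TGACGTCA (1.85%). No match overlapped another. A match is a run of letters only, and binding was not measured.

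The largest CEACAM signal was that of CEACAM6 (Entrez 4680), an adhesion molecule abundant in lung and colon carcinomas. Its signal was 265, 291 and 281 in DMSO 1, 2 and 3, and 3705, 3377 and 3613 in erlotinib 4, 5 and 6. The groups were far apart, and both were tight. The mean went up from 279 ± 12.8 to 3565 ± 169 (SD, n = 3 per group). The fitted log2 fold change was 3.67 ± 0.08 (SE), a fold of 12.7, with a 95% confidence interval of 3.49 to 3.85 and an adjusted p of 3.4e-18 (limma, Benjamini-Hochberg). Fold changes are on the scale of log2(signal + 1), where the added 1 shrinks those of genes with few reads.

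CEACAM5 (Entrez 1048) had few reads without the drug. It had 15, 40 and 8 reads in DMSO 1, 2 and 3, and 304, 251 and 349 reads in erlotinib 4, 5 and 6. As signal these were 17.0, 37.1 and 8.56 against 281, 248 and 327. The groups did not overlap, but the DMSO libraries differed widely among themselves, with DMSO 2 the highest and a coefficient of variation of 70.2%. The mean rose from 20.9 ± 14.7 to 285 ± 39.3 (SD, n = 3 per group), and the log2 fold change was 3.92 ± 0.34 (SE; 95% confidence interval 3.21 to 4.64; limma adjusted p = 2.1e-09). The fitted fold of 15.2 thus has an interval of 9.25 to 24.9. Without DMSO 2 the log2 fold change was 4.44, and without DMSO 3 it was 3.44. On recovered reads it was 3.74 with edgeR (TMM factors), 3.77 with DESeq2 and 3.94 with limma-voom. The fold of 15.2 is therefore not a lower bound.

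CEACAM1 (Entrez 634), the transmembrane member, also rose. Its signal was 81.7, 76.2 and 74.9 in the DMSO libraries and 450.3, 495 and 447.4 in the erlotinib libraries. All erlotinib values lay above all DMSO values. The mean went up from 77.6 ± 3.60 to 464 ± 26.7 (SD, n = 3 per group), and the fitted log2 fold change was 2.57 ± 0.15 (SE; 95% confidence interval 2.26 to 2.87; limma adjusted p = 2.6e-12), a fold of 5.92. Within a library, where depth cancels, there were 3.25, 3.82 and 3.76 units of CEACAM6 signal per unit of CEACAM1 in DMSO, and 8.23, 6.82 and 8.08 with erlotinib. The mean ratio thus went from 3.61 ± 0.312 to 7.71 ± 0.771 (SD, n = 3 each), a difference of 1.09 on the log2 scale, and the ratio was higher in all 3 erlotinib libraries than in any DMSO library. The two-sided exact permutation test gave p = 0.1, the smallest that 3 against 3 libraries allow. This was the only pair of CEACAM genes compared, since CEACAM5 had fewer than 10 reads in DMSO 3.

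CEACAM7, an antigen of colonic epithelium, was listed at 0 in all 6 libraries. At these depths a count of 0 allows a level of up to between 0.122 and 0.145 CPM, from a limit of 3 reads per library that covers counting error only. Of the stretches of 100 bases within its exons, 68.8% are also present, letter for letter, on alternate contigs of the genome, so that reads from them would not be unique if these contigs were in the index. Whether they were is not given in the sources used here. For CEACAM1, CEACAM5 and CEACAM6, no stretch of 100 bases had an exact copy elsewhere on the chromosomes, while of the stretches of 50 bases 5.06%, 9.17% and 4.21% did. CEACAM5 and CEACAM6 shared 40 such stretches with each other. Exons of LIPE-AS1, an antisense gene, overlap 3.35% of the exon bases of CEACAM1. Its own signal rose from a mean of 1044 to 1798 (log2 fold change 0.79, limma adjusted p = 1.8e-08), and since the strand that was counted is not stated, reads in the overlap cannot be told apart. One further annotated transcript unit on the same strand overlaps 3.49% of the exon bases of CEACAM5 and 4.67% of those of CEACAM6.

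**Figure D1:**
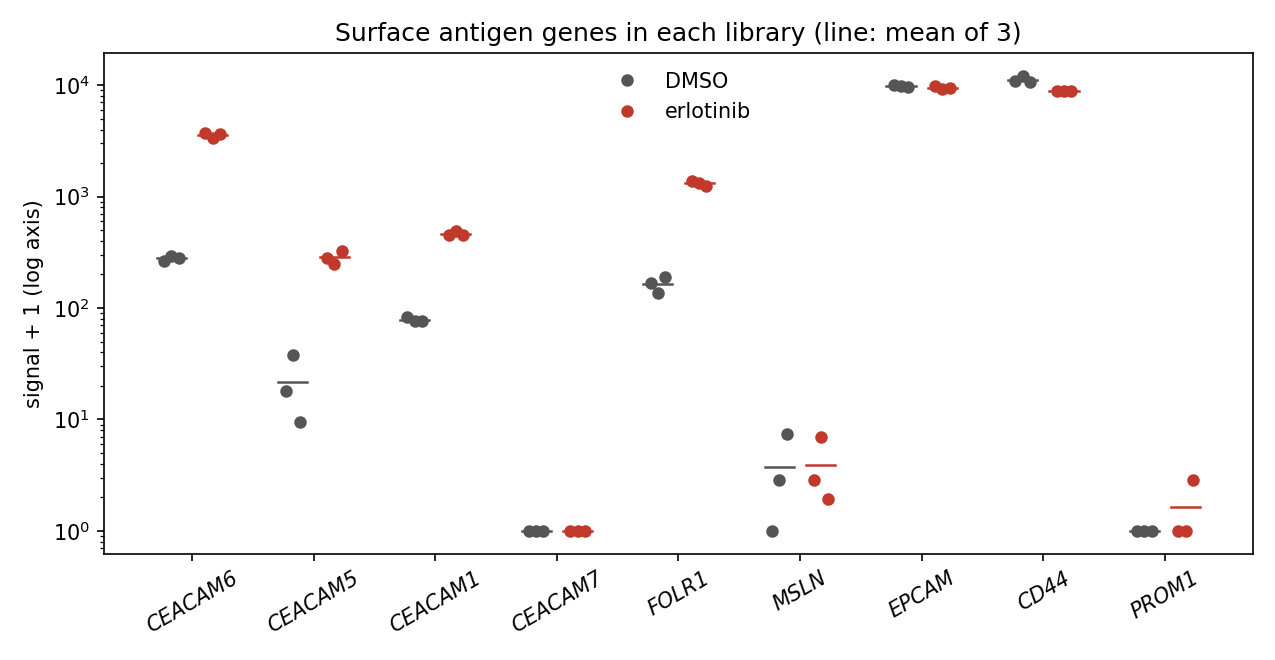
Signal plus 1 of the 9 surface antigen genes on a log axis, with 1 point for each of the 3 DMSO (grey) and 3 erlotinib (red) libraries and a line at each group's mean. CEACAM6, CEACAM5, CEACAM1 and FOLR1 were higher in every erlotinib library than in any DMSO library, EPCAM overlapped, CD44 was slightly lower, and CEACAM7, MSLN and PROM1 had between 0 and 6 reads per library.

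FOLR1 (Entrez 2348; chr11:72189709-72196323), the GPI-anchored folate receptor alpha, rose with the CEACAM genes. Its signal was 166, 135 and 188 in DMSO 1, 2 and 3, and 1388, 1316 and 1249 in erlotinib 4, 5 and 6. The groups did not overlap. The mean went up from 163 ± 27.0 to 1317 ± 69.6 (SD, n = 3 per group), and the fitted log2 fold change was 3.02 ± 0.12 (SE; 95% confidence interval 2.77 to 3.27; limma adjusted p = 9.7e-15), a fold of 8.11.

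The other genes of folate transport and metabolism went largely the other way. Of 20 listed genes 17 were tested, 13 of them fell, 1 rose and 3 did neither (limma, Benjamini-Hochberg), where 35.4% of all tested genes fell and 35.3% rose. The median log2 fold change was -0.96, against 0.02 over all tested genes. TYMS, the thymidylate synthase, fell from 436 ± 42.2 to 47.1 ± 4.72 (log2 fold change -3.18, limma adjusted p = 8.6e-13). The other folate receptors were near 0, with 6 reads of FOLR2 and 2 of FOLR3 over the 6 libraries, and SLC46A1, the proton-coupled folate transporter, had a signal of 549 ± 102 against 543 ± 13.9.

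MSLN (Entrez 10232; chr16:760734-768865), the gene of mesothelin, was near the floor, with 0, 2 and 6 reads in DMSO 1, 2 and 3 and 2, 6 and 1 in erlotinib 4, 5 and 6. The groups overlapped, and no change could be measured at this depth. MUC16, which encodes the mucin that mesothelin binds, was well expressed. It was named after its values were seen. Its signal was 930.2, 1886 and 964 in DMSO and 2915, 2830 and 6997 with erlotinib, so that DMSO 2 and erlotinib 6 stood above the others of their groups, and the log2 fold change was 1.70 ± 0.25 (SE; limma adjusted p = 4.3e-06).

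EPCAM (Entrez 4072; chr2:47369311-47387020) was one of the most abundant of these genes and did not pass the test. Its signal was 10104, 9813 and 9638 in the DMSO libraries and 9802, 9268 and 9386 in the erlotinib libraries, and the groups overlapped. The log2 fold change was -0.05 ± 0.06 (SE; limma adjusted p = 0.429), with a 95% confidence interval of -0.18 to 0.07. When each library was scaled to its total count instead, the sign turned and the value was 0.12 (adjusted p = 0.0618).

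Among 19 listed genes of proteins that bind, cut or transmit signals from EPCAM, 18 were tested besides it, and 9 rose, 4 fell and 5 did neither, beside 35.3% of all tested genes higher and 35.4% lower, and the median log2 fold change was 0.21. Scaling to the total count gave 12 higher and 2 lower. TSPAN8, a tetraspanin that associates with EPCAM, rose from 34.5 ± 8.61 to 442 ± 27.6 (3.67, limma adjusted p = 1.1e-12), and APH1B, a subunit of the gamma-secretase that cuts EPCAM within the membrane, rose from 15.4 ± 8.59 to 58.0 ± 7.87 (1.97, adjusted p = 1.5e-04). FHL2, which binds the released intracellular domain, fell from 2668 ± 176 to 1105 ± 93.6 (-1.27, adjusted p = 1.5e-11). CTNNB1, the gene of beta-catenin, fell from 6309 ± 629 to 4892 ± 185 (-0.36, adjusted p = 1.6e-04).

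CD44 (Entrez 960; chr11:35139171-35232402) fell by a small amount. Its signal was 10967, 12152 and 10576 in DMSO 1, 2 and 3, and 8877, 8897 and 8952 in erlotinib 4, 5 and 6. The erlotinib values were tight and all lay below the DMSO values. The mean fell from 11232 ± 821 to 8908 ± 38.9 (SD, n = 3 per group), a change of -20.7%, with a log2 fold change of -0.33 ± 0.06 (SE; 95% confidence interval -0.47 to -0.20; limma adjusted p = 1.2e-04). Scaling to the total count, which shifted the median of all tested genes from 0.02 to 0.19, gave -0.15 (adjusted p = 0.0398). The table sums all transcripts of a gene, so the variant exons of CD44 were not resolved. Exons of CD44-AS1 and CD44-DT on the opposite strand overlap 0.841% and 0.701% of its exon bases.

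In the list of hyaluronan metabolism and CD44 partners, 17 of 20 genes were tested, of which 6 rose, 8 fell and 3 did neither (median log2 fold change -0.38). The share that rose, 35.3%, was that of all tested genes, of which 35.4% fell. HMMR, another hyaluronan receptor with a role in mitosis, fell from 2031 ± 235 to 426 ± 32.6 (-2.25, limma adjusted p = 2.7e-14), and HAS3, a hyaluronan synthase, from 1572 ± 56.1 to 360 ± 57.9 (-2.14, adjusted p = 3.7e-13). SPP1, the gene of osteopontin, a secreted ligand of CD44, rose from 22.6 ± 12.5 to 182 ± 22.3 (3.08, adjusted p = 2.0e-08). CD74, which forms a receptor with CD44, rose from 10.7 ± 9.61 to 52.7 ± 6.79 (2.52, adjusted p = 1.5e-04).

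PROM1 (Entrez 8842; chr4:15968228-16084023) had 0 reads in every library but erlotinib 6, which had 2, so the groups overlapped and no change could be measured. Its paralog PROM2, named after its values were seen, had a signal of 900.7, 729 and 1011 in DMSO and 1493, 1487 and 1615 with erlotinib (log2 fold change 0.81, limma adjusted p = 4.0e-07).

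Of the 6 tested surface antigen genes, 4 rose (CEACAM5, CEACAM6, FOLR1 and CEACAM1), 1 fell (CD44) and 1 did neither (EPCAM), at an adjusted p under 0.05 in limma. Over all 14215 tested genes 35.3% rose and 35.4% fell, so being called is itself common here. A rise of at least 1 log2 unit was less common, at 17.0% of tested genes, and a rise of at least 2 log2 units was found in 5.85%, and all 4 genes that rose passed both. In rank from the largest rise among the 14215 genes, CEACAM5 was at 101, CEACAM6 at 141, FOLR1 at 280 and CEACAM1 at 455. CD44 was at 9450. Every erlotinib library lay above every DMSO library for the same 4 genes, as for 36.7% of tested genes, and below for CD44, as for 36.9%. The median log2 fold change of the 6 genes was 2.79 and that of all tested genes 0.02. The filter, a signal averaging 10 or more, removed 3 of the 9 genes, so these counts do not stand for all of them. Scaling to the total count moved the counts over all genes from 5012 higher and 5031 lower to 6156 higher and 3955 lower, and left the 4 and 1. In bulk RNA, more cells of one kind and more RNA per cell cannot be told apart.

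**Figure D2:**
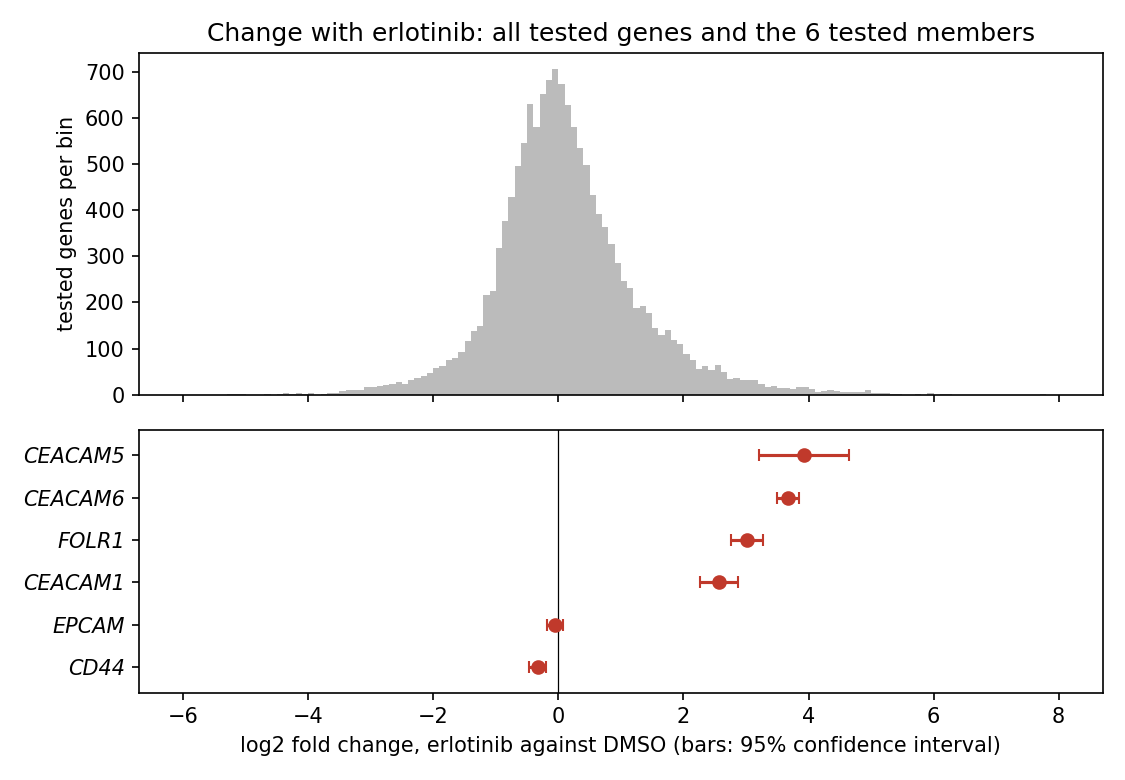
The upper panel is a histogram of the log2 fold changes (erlotinib against DMSO) of all 14215 tested genes, and the lower panel shows the 6 tested surface antigen genes on the same axis with 95% confidence intervals. CEACAM5, CEACAM6, FOLR1 and CEACAM1 lie between 2.57 and 3.92, in the thin upper tail, while EPCAM (-0.05) and CD44 (-0.33) lie within the bulk of the genes.

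Levels were compared between genes after division by exon length. Reads lost at exon junctions or in repeated stretches can differ between genes, and this was not corrected. In DMSO the signal per kb of exon was 4054 ± 96.9 for EPCAM, 1124 ± 82.1 for CD44, 102 ± 16.8 for FOLR1, 94.5 ± 4.32 for CEACAM6, 14.0 ± 0.65 for CEACAM1 and 5.25 ± 3.68 for CEACAM5 (SD, n = 3). FOLR1 (84.1 to 118) and CEACAM6 (89.8 to 98.3) overlapped across libraries, and the other neighbours in this order did not. Without DMSO 2, the level of CEACAM5 in DMSO was 3.21. With erlotinib the order became EPCAM at 3903 ± 115, CEACAM6 at 1206 ± 57.3, CD44 at 892 ± 3.89, FOLR1 at 823 ± 43.5, CEACAM1 at 84.0 ± 4.82 and CEACAM5 at 71.6 ± 9.86. CEACAM6 thus stood above CD44 and FOLR1. CD44 (888 to 896) and FOLR1 (780 to 867) did not overlap, whereas CEACAM1 and CEACAM5 did. These lengths join the exons of all transcripts in GENCODE release 44, and dividing by the longest coding transcript put CD44 (1640) above CEACAM6 (1374) in erlotinib. MSLN, PROM1 and CEACAM7 were last in both groups.

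**Figure D3:**
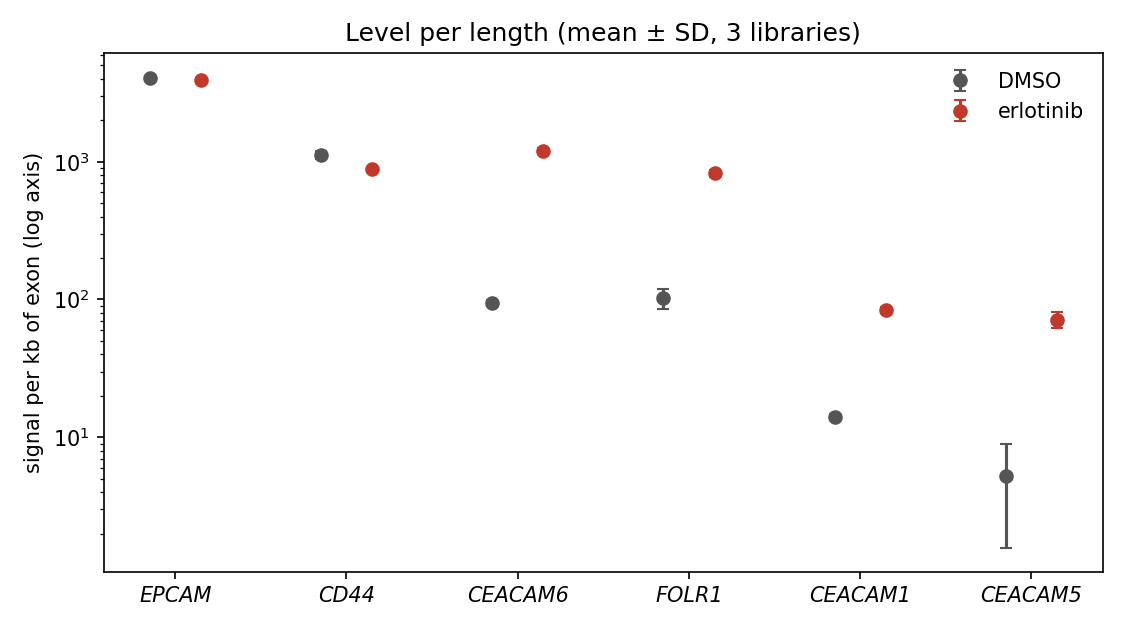
Signal per kb of exon on a log axis for the 6 tested surface antigen genes, as mean ± SD of 3 DMSO (grey) and 3 erlotinib (red) libraries; error bars smaller than the points are hidden by them. CEACAM6 goes from 94.5 to 1206 and FOLR1 from 102 to 823, next to CD44, while EPCAM stays at 3903 or above and CEACAM1 and CEACAM5 stay at or under 84.0.

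The genes around the CEACAM members changed by less than these did. In RefSeq, 25.0 kb separate CEACAM5 from CEACAM6 and 735 kb separate CEACAM6 from CEACAM1, and 19 tested genes lie in that second interval. Between 250 kb before CEACAM7 and 250 kb after CEACAM1 the table holds 45 genes, of which 25 were tested, 22 besides the CEACAM members. Of these 22, 9 rose, 1 fell and 12 did neither (limma, Benjamini-Hochberg), where 35.3% of all tested genes rose and 35.4% fell, and the median of their log2 fold changes was 0.03. CNFN and GSK3A were named after their values were seen. The highest was CNFN, the gene of cornifelin, at 1.49 with a signal of 9.06 against 28.6, below each of the 3 CEACAM genes. It passed the filter on low values only through its erlotinib libraries. GSK3A, a kinase gene in the middle of the interval, had a signal of 921 against 859 (-0.09, adjusted p = 0.379). Of the 8 further CEACAM genes on the list, CEACAM4, CEACAM8 and CEACAM21 had 0 reads, CEACAM3 had 1, and the one tested, CEACAM19, went from 29.6 ± 3.02 to 55.4 ± 4.92 (log2 fold change 0.89, limma adjusted p = 0.011).

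**Figure D4:**
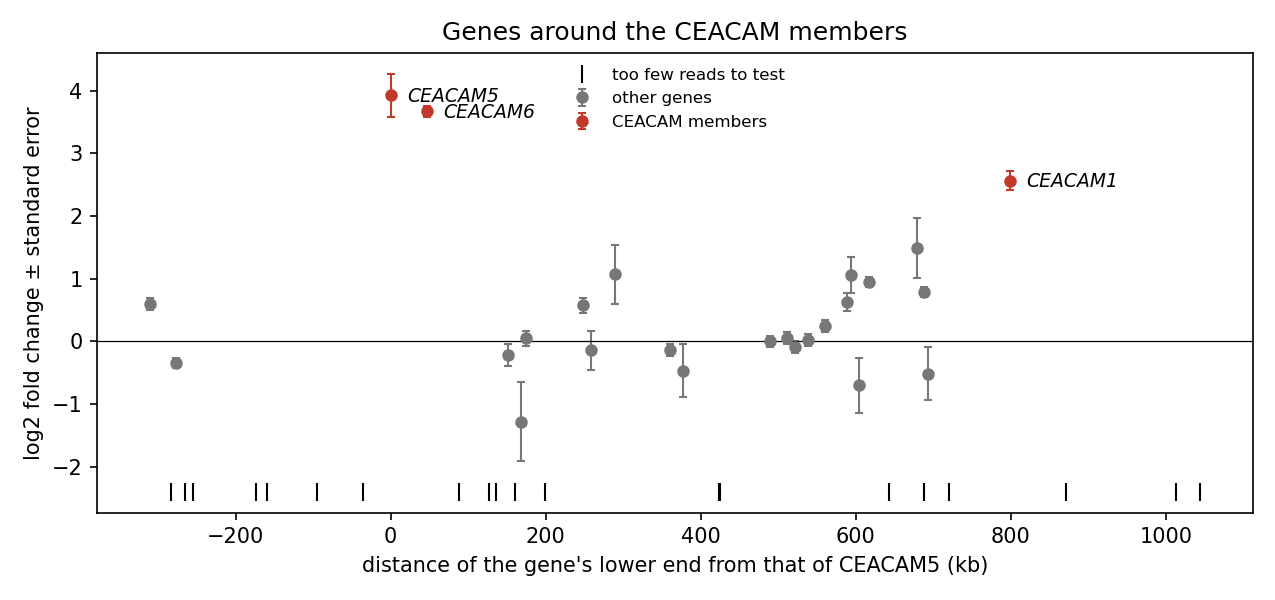
Log2 fold change ± SE of the 25 tested genes from 250 kb before CEACAM7 to 250 kb after CEACAM1, against the distance in kb from CEACAM5, with the 3 CEACAM members in red, other genes in grey and genes with too few reads to test as ticks along the bottom. CEACAM5 and CEACAM6 stand near 4 and CEACAM1 at 2.57, and the other genes lie at 1.49 or below.

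Surface proteins that antibody drugs have been aimed at made up a further list of 36 genes. Of these, 28 were tested, 15 rose, 9 fell and 4 did neither (limma, Benjamini-Hochberg), against 35.3% of all genes higher and 35.4% lower, and the median log2 fold change was 0.75. NAPSA had been put on this list although napsin A is a secreted protease. Without it, 14 of 27 rose and the median was 0.73. VTCN1, which encodes the immune checkpoint ligand B7-H4, rose from 11.4 ± 6.39 to 330.3 ± 20.4 (4.87 ± 0.30, adjusted p = 9.7e-12), and SLC34A2, the phosphate transporter of alveolar type 2 cells, from 15.6 ± 9.87 to 132 ± 6.55 (3.16 ± 0.35, adjusted p = 6.6e-08). MUC1, a membrane mucin, rose from 419.7 ± 50.1 to 2961 ± 103 (2.82 ± 0.09, adjusted p = 3.3e-16), and CD74, also on this list, as given above. The largest falls were in F3, the gene of tissue factor, from 21086 ± 1814 to 3249 ± 89.4 (-2.69 ± 0.07, adjusted p = 1.0e-17), and AXL, a receptor tyrosine kinase, from 349.6 ± 45.5 to 125 ± 38.6 (-1.51 ± 0.18, adjusted p = 3.3e-07). ROR1, an orphan receptor tyrosine kinase, fell from 2098 ± 68.1 to 981 ± 9.56 (-1.10 ± 0.08). STEAP1 fell from 519 ± 105 to 268 ± 28.5 (-0.93 ± 0.14). LY6E and SLC44A4 were listed at 0 in every library. Copies of their exons on alternate contigs were not searched for, so a listed 0 does not show that they were not expressed. In this list VTCN1 alone had a higher point value than CEACAM5 and CEACAM6, and VTCN1 and SLC34A2 alone a higher one than FOLR1.

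**Figure D5:**
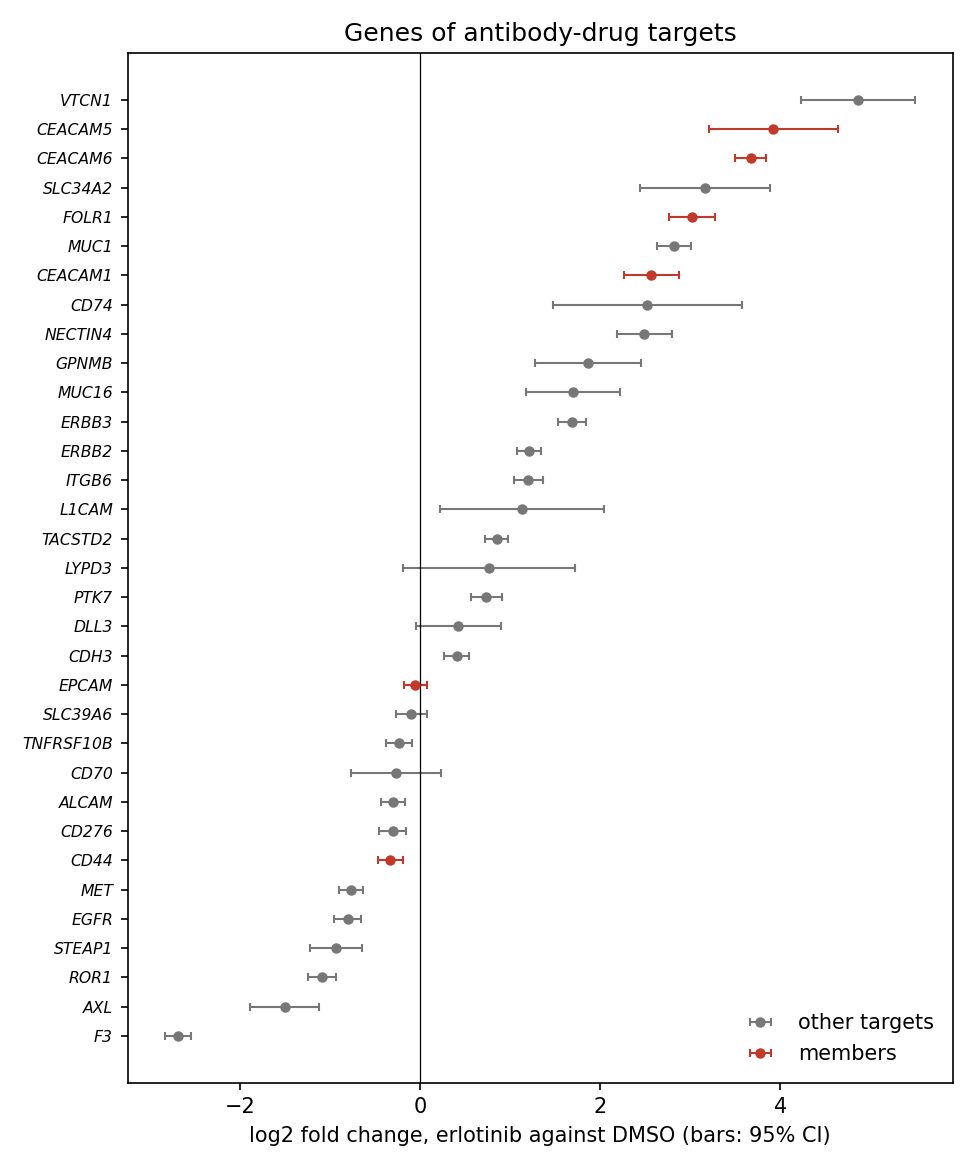
Log2 fold change (erlotinib against DMSO) with 95% confidence intervals for the 6 tested surface antigen genes (red) and 27 tested genes of other targets of antibody drugs (grey; NAPSA left out), ordered by size. The values run from -2.69 for F3 to 4.87 for VTCN1, with CEACAM5, CEACAM6, FOLR1 and CEACAM1 among the 7 at the top.

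Since CEACAM5, CEACAM6 and FOLR1 need a GPI anchor, the genes that build, attach and trim it were examined as a list of 31. Of 29 tested, 9 rose, 10 fell and 10 did neither (limma, Benjamini-Hochberg), near the shares over all genes, and the median log2 fold change was 0.08. Scaling to the total count gave 14 higher and 5 lower. PGAP3, which remodels the fatty acids of the anchor, rose from 419 ± 29.6 to 1830 ± 49.3 (2.13, adjusted p = 1.5e-14), and PIGZ, a mannosyltransferase, from 30.2 ± 11.7 to 108 ± 23.9 (1.87, adjusted p = 1.7e-05). DPM1, which makes the mannose donor, fell from 676 ± 52.1 to 329 ± 51.8 (-1.05, adjusted p = 1.3e-07), and PIGK, the catalytic subunit of the transamidase, from 1780 ± 233 to 1065 ± 23.7 (-0.73, adjusted p = 2.8e-07). PIGW and PIGY were listed at 0, and whether their reads were lost in mapping was not tested.

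The genes most like each member were found by the root-mean-square difference of log2(signal + 1) over the 6 libraries after subtracting the DMSO mean, among 11062 other genes whose signal averaged 100 or more. These values describe likeness of pattern and carry no test. Nearest to CEACAM6 were TRANK1 (0.13) and AMN (0.16), to CEACAM1 YPEL2 (0.04) and CDHR2 (0.06), and to FOLR1 VIPR1 and TJP3 (0.08 each). The distances were larger for CEACAM5, its nearest being TNFSF10 (0.45) and MAF (0.47). The wide spread of CEACAM5 between DMSO libraries enters these distances. The log2 fold change of TNFSF10 was 3.90, against 3.92 for CEACAM5. EPCAM was nearest to FAM32A and COQ9 (0.02 each), and CD44 had C18orf25 near it (0.02).

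The libraries were those of an epithelial line by their markers. All 12 listed epithelial and lung genes were tested. Of these, 7 rose and 4 fell (35.3% and 35.4% over all tested genes). CDH1, the gene of E-cadherin, did neither at 27824 ± 967 against 30609 ± 633 (limma adjusted p = 0.053). With edgeR, DESeq2 or limma-voom on recovered reads, 8 of the 12 rose and 4 fell, so that CDH1 was called higher. NAPSA and ELF3, of the differentiated airway and alveolar epithelium, rose by 1.92 and 1.70 on the log2 scale, and the keratins KRT18 and KRT8 fell by 1.25 and 0.83 (limma adjusted p of 8.4e-15, 1.5e-15, 1.6e-12 and 4.3e-10). Markers of other cell types were not level between the groups. The summed signal of 10 fibroblast genes was 77.1, 80.8 and 115 in DMSO and 269, 228 and 227 with erlotinib, nearly all of it COL1A1, with FAP and THY1 at 0. That of 6 endothelial genes was 34.0, 15.8 and 24.6 against 58.1, 46.5 and 48.7, led by PECAM1 in DMSO (15.7 on average, and 10.4 with erlotinib) and by VWF with erlotinib (3.94 and 27.4), with CLDN5 at 0. That of 10 immune genes was 2794, 2801 and 3175 against 3256, 3557 and 3482, where CD68, a lysosomal protein of many cells, held most of it, with MS4A1 and FCGR3A at 0 and PTPRC at 5 and 15 reads in all. That of 7 mesothelial genes, cells that express MSLN, was 496, 453 and 555 against 319, 271 and 306, led by LRRN4, with WT1 at 0. COL1A1 (1.47), VWF (2.74) and CD68 (0.23) were called higher and LRRN4 (-0.97) lower, while PECAM1 (-0.55) did neither. VWF passed the filter on low values only through its erlotinib libraries, so it had to differ. Their part in the changes of the surface antigen genes was not tested.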

How the data were processed

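RNA from HCC827 cells was sequenced in 6 libraries. The submitters' processing notes name GRCh38, Bowtie2 2.3.4, featureCounts 1.6.3 and DESeq2 1.18.1. Bowtie2 aligns without gaps at introns, so junction reads can be lost. The signal deposited by the authors is described as raw counts, but each value was a whole multiple of 1 step per library (tolerance 0.02, 100% of values), which whole reads over a size factor would give. The sources used here do not state that division or the strand counted.
Change was tested with limma on log2(signal + 1), two-sided, with a variance trend, for genes averaging 10 or more, with Benjamini-Hochberg adjustment over all of them and a threshold of 0.05. No covariate was used. Alternatives included count models on the recovered reads. The procedure was tested on simulated data, and the outcome is not reported here. Genes with no symbol (475) were kept.
The members and lists were chosen with earlier results of these data known. Named were all members and, per list, the 2 largest called rises and falls (4 among antibody targets). Any other gene was named after its values were seen. Some single genes that this rule would name are not reported here. Lists covered other CEACAMs, antibody targets, GPI anchors, EPCAM partners, hyaluronan and CD44, folate, stem-like cells, and markers of epithelium, fibroblasts, endothelium, immune cells and mesothelium.
Tools were limma 3.58.1, edgeR 4.0.16 and DESeq2 1.42.0 in R 4.3.3, and scipy 1.17.1, biopython 1.88 and matplotlib 3.10.9 in Python 3.11.15.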

Additional observations from a re-analysis of the deposited data

How the results depend on the processing

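In 16 alternatives (edgeR, DESeq2 and limma-voom on recovered reads, other scalings, pseudocounts, filters and thresholds, and each library left out in turn), CEACAM1, CEACAM6 and FOLR1 kept their rise and CD44 its fall at an adjusted p under the threshold in all. CEACAM5 did so in the 15 that could test it, since a minimum of 10 reads in every library removed it and left 3 members called higher. The highest adjusted p was 6.1e-05 for CEACAM1, 0.0066 for CEACAM5, 2.7e-05 for CEACAM6, 2.4e-04 for FOLR1 and 0.0398 for CD44, and EPCAM stayed between 0.0618 and 0.686. EPCAM alone changed sign, to 0.12 with scaling to the total count, and the cause was not tested. Log2 fold changes ran from 3.35 to 4.44 for CEACAM5 and from -0.37 to -0.15 for CD44, the latter from scaling to the total count. The log2 difference in the ratio of CEACAM6 to CEACAM1 was 1.02 to 1.18 with single libraries left out, a check chosen after seeing the data, as was leaving out NAPSA.

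Of 386 list counts, 10 moved by over 1.5 times. Scaling to the total count gave 14 GPI anchor genes higher and 5 lower and 2 EPCAM partners lower. A threshold of 0.01 gave 6 GPI anchor genes lower and 0 other CEACAM genes higher. With no filter 2 epithelial genes were lower and 0 immune genes higher, a minimum of 10 reads gave 0 endothelial genes higher, and leaving out DMSO 1 or erlotinib 5 gave 2 mesothelial genes lower or 0 immune genes higher. Genes higher over the whole table numbered 4240 to 6156 and genes lower 3955 to 5080. Dividing by the longest coding transcript moved the signal per kb in DMSO and erlotinib to 22.2 and 133 for CEACAM1, 108 and 1374 for CEACAM6, 122 and 990 for FOLR1, 2068 and 1640 for CD44 and 6368 and 6131 for EPCAM, and to 81.5 for CEACAM5 in erlotinib. No paired analysis was possible because the sample titles number both groups 1 to 3 but the erlotinib columns carry the numbers 4 to 6, and nothing ties a column to a title. Leaving out DMSO 2 moved the level of CEACAM5 per kb in DMSO from 5.25 to 3.21. No change could be measured for MSLN and PROM1 at this depth, nor for CEACAM7, listed at 0.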

Other observations

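Genes used as markers of stem-like cells beside PROM1 and CD44 held both rises and falls. Of 14 listed, 9 were tested, 4 rose, 4 fell and 1 did neither (limma, Benjamini-Hochberg), beside 35.3% of all tested genes higher and 35.4% lower, and the median log2 fold change was -0.25. SOX2, a transcription factor of stem and airway progenitor cells, rose from 223 ± 22.5 to 1574 ± 162 (SD, n = 3 each; 2.82 ± 0.11, adjusted p = 4.6e-15), and CD24, a small GPI-anchored glycoprotein, from 3223 ± 137 to 15962 ± 524 (2.31 ± 0.06, adjusted p = 3.3e-17). ITGA6, the integrin alpha chain of hemidesmosomes, fell from 9207 ± 369 to 2335 ± 77.4 (-1.98 ± 0.06, adjusted p = 3.9e-16), and ABCG2, a drug efflux pump, from 129 ± 9.83 to 44.5 ± 5.71 (-1.52 ± 0.22, adjusted p = 3.8e-06). NANOG and THY1 had 0 reads.

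Receptors that antibody drugs address in the clinic were named after their values were seen. ERBB2 rose from 2312 ± 81.6 to 5337 ± 7.06 (1.21 ± 0.06, limma adjusted p = 8.7e-13) and ERBB3 from 1783 ± 152 to 5723 ± 176 (1.68 ± 0.07, adjusted p = 2.5e-14), while EGFR, the kinase that erlotinib inhibits, fell from 79645 ± 2441 to 45538 ± 3759 (-0.81 ± 0.07, adjusted p = 2.4e-09) and MET from 34553 ± 1797 to 20251 ± 611 (-0.77 ± 0.06, adjusted p = 9.2e-10).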
